A study of Mus musculus with 24 samples.

Results

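An antibody against PD-1, a receptor that restrains T cells, was given to tumour-bearing wild-type mice that also received LGG (Lactobacillus rhamnosus GG, an oral probiotic bacterium), and their mesenteric lymph node cells were compared with those of mice given LGG without the antibody. The comparison was chosen by the treatment labels and takes 6 of the 24 libraries of the series, 3 of the combination and 3 of LGG alone. Each library holds RNA of cells labelled as CD11c-positive dendritic cells, purified with magnetic beads from the nodes that drain the gut. All 6 come from female C57BL/6 mice aged 6 to 8 weeks that carried MC38 colon tumours under the skin and had an intact Myd88 gene. Treatment began 7 to 10 days after tumour injection, at an average tumour size of 100 mm3, and lasted 2 to 3 weeks. Live LGG was given by mouth and antibody was injected into the abdomen, each with 2 doses a week, at 200 ug of antibody per mouse. The labels record no control antibody for LGG alone, so the groups differ in whether any antibody was given. Mice were pooled before they were randomised, and nothing says that the 3 replicates came from separate mice, so the p-values measure the spread between these samples, which may be technical. The further groups used for reference are wild-type mice given control IgG or anti-PD-1 without LGG, and Myd88 knockout mice given LGG with or without anti-PD-1, each with 3 libraries.

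Dendritic cells take up antigen in the gut, carry it along a gradient sensed by the receptor Ccr7 into the mesenteric node and present it to T cells. Microbial products are read by Toll-like receptors, most of which signal through the adaptor Myd88, and by sensors of nucleic acids, whose output is type I interferon. Interferon received by a cell switches on a set of antiviral genes (Rsad2, Cmpk2, and the Ifit and Oas families). Promoters of many such genes carry a short repeat of GAAA bound by interferon-activated transcription factors. Anti-PD-1 acts first on T cells, and interferon-gamma from T and NK cells induces the chemokines Cxcl9 and Cxcl10 in myeloid cells.

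The antiviral genes Ifit2, Cmpk2 and Rsad2 were 1.61-, 1.57- and 1.49-fold higher in the combination than under LGG alone, and the retinoic acid-degrading enzyme Cyp26b1 was 1.72-fold higher. The inducible nitric oxide synthase Nos2 and the macrophage surface receptor Adgre1 (F4/80) also rose. The chemokines Cxcl9 and Cxcl10, the interleukin-23 subunit Il23a, the migration receptor Ccr7 and the myeloid receptors Clec5a and Trem1 were lower. In all, limma on log2(value + 1) called 145 of 12504 genes at a Benjamini-Hochberg adjusted p below 0.05, which is 1.16% of those tested. Of these, 99 were higher in the combination (0.792%) and 46 were lower (0.368%). The differences were small: 2 called genes, Sntb1 and Depp1, passed 2-fold, and the smallest called difference was 0.26 on the log2 scale. The median of all tested genes was -0.02.

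**Figure D1:**
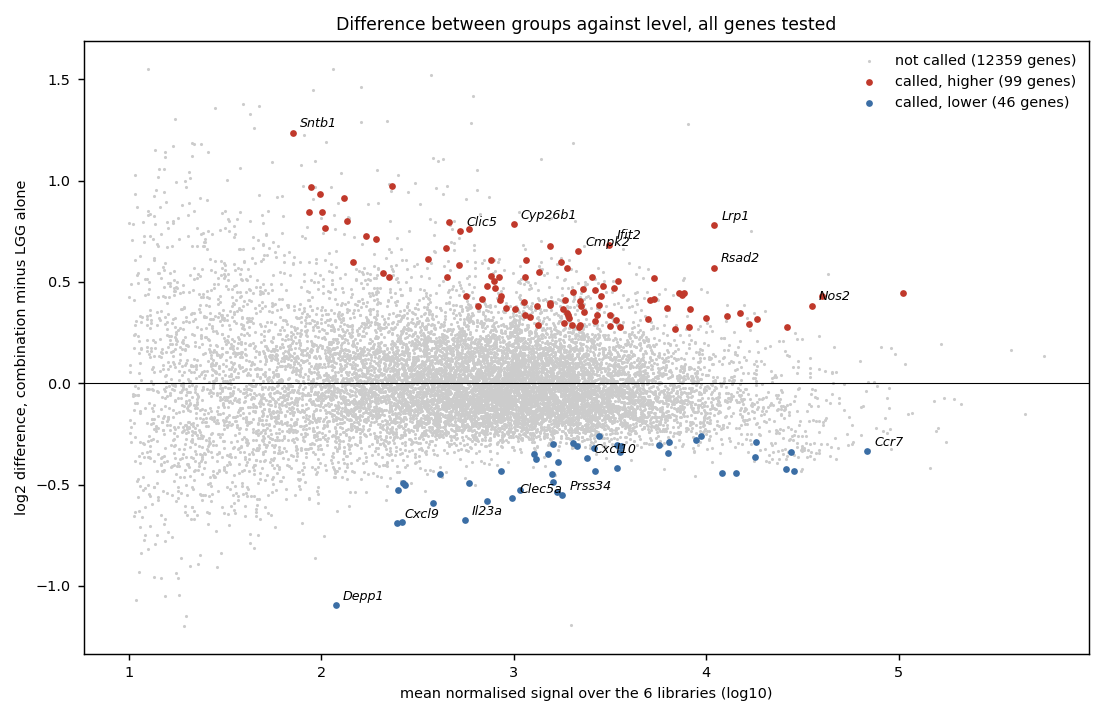
Log2 difference, combination minus LGG alone, against the mean normalised signal of the 6 libraries (log10), 1 point per tested gene. Red and blue points are the 99 higher and 46 lower genes called by limma at an adjusted p below 0.05, and grey points are the 12359 others. Most called genes lie within 2-fold, and Sntb1 and Depp1 lie farthest from 0 among them.

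The libraries of the 2 groups were not equally spread, and this bears on every count. LGG replicate 3 stood apart from LGG replicates 1 and 2: on the first principal component, which holds 49.9% of the variance, it scored 4.19 against -21.5 and -20.3, beside 3.85, 15.95 and 17.8 for the combination. LGG replicates 1 and 2 differed by a chi-square of 2.26 per degree of freedom and the combination's replicates 2 and 3 by 1.99, where all other pairs of the 6 lay between 10.8 and 42.4. Those 2 pairs still differed by more than sampling noise and were counted as separate samples. Separate libraries of 1 pool of cells could differ in this way too, so it does not show that they are independent. Leaving out LGG replicates 1, 2 and 3 in turn gave 10, 7 and 3867 called genes, and leaving out the combination's replicates 1, 2 and 3 gave 746, 9 and 8. With each close pair averaged and counted as 1 sample, limma called 0 genes, with 845 at an unadjusted p below 0.05 and no other tool run on those averages. Reads assigned to the listed genes numbered from 25864666 to 31226102 per library.

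In each of the 6 fits that leave out a library, 7 genes were called: Cmpk2, Rsad2, Ifit2, Fstl1, Clic5, Snhg11 and Cyp26b1. All 7 rose. Of the others, 134 were called in 2 of those fits, 3 in 3 and 1 in 5. The label of the cells was checked against their markers. Transcripts listed as dendritic cell markers, not all of them confined to these cells, were present in all 6 libraries. Among them were Itgax (CD11c itself) at 9637 to 10340, H2-Ab1 at 40558 to 48058 and Zbtb46 at 1986 to 2323 of normalised signal. Clec9a, a marker of the cross-presenting cDC1 type, was low at 18.9 to 37.3. It is 1 of 16 tested cDC1 markers, whose summed signal was 80815 to 86023 under LGG alone and 75534 to 78082 in the combination. T cell and NK transcripts were present too, with Cd3e at 882 to 997 and the granule protease Gzma at 38468 to 45230. The summed signal of 29 T cell markers was 31917 to 32813 under LGG alone and 31500 to 32510 in the combination, and that of 15 NK and cytotoxic markers was 179042 to 218325 and 183239 to 208590. These ranges overlap. The summed signal of 13 markers common to all dendritic cells was 243483 to 285168 under LGG alone and 234505 to 261827 in the combination. Gzma lay above Itgax in all 6 libraries, so the presence of dendritic cell transcripts does not show that the cells were pure. Which cell type each difference arose in was not tested. In such bulk samples fewer cells of a type and less RNA per cell cannot be told apart.

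Rsad2 (viperin, an enzyme that makes a chain-terminating nucleotide) had a normalised signal of 8780, 8675 and 8976 under LGG alone and of 12956, 12869 and 13440 in the combination. Every combination library lay above every LGG library, with a log2 difference of 0.57 ± 0.05 (SE) and a limma adjusted p of 0.00192. Cmpk2, a mitochondrial nucleotide kinase whose gene lies next to Rsad2 on chromosome 12 and is transcribed away from it, had 1584, 1616 and 1844 under LGG alone and 2525, 2680 and 2710 in the combination. Its log2 difference was 0.65 ± 0.07 (limma adjusted p = 0.00247). Ifit2, which binds viral RNA, had 2288, 2290 and 2609 under LGG alone and 3581, 3904 and 4054 in the combination, a log2 difference of 0.68 ± 0.07 (limma adjusted p = 0.00228). On build mm10 Rsad2 lies at chr12:26442746-26456452, Cmpk2 at chr12:26469204-26479837 and Ifit2 at chr19:34550694-34576419. In all 3 genes LGG replicate 3 was the highest LGG library and still lay well below the lowest of the combination. With each close pair averaged, the log2 differences of Rsad2, Cmpk2 and Ifit2 were 0.56, 0.60 and 0.63, each at a limma adjusted p of 0.166.

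Of the 41 tested genes of a type I interferon list, 7 rose and 0 fell by limma, against 0.792% and 0.368% of all genes. Besides Rsad2, Cmpk2 and Ifit2 these were Oas3 (a sensor of double-stranded RNA) at a log2 difference of 0.44, Ifit3 at 0.45, Ifit1 at 0.32 and Ifi44 at 0.29. The list's median was 0.15, beside -0.02 over all genes, and 32 of the 41 differences were positive. In 21 of them all 3 combination libraries lay above all 3 of LGG alone, where 10.8% of all genes did, and in 2 they lay below, where 14.9% did. Ifit1, Ifit3, Ifit3b and Ifit1bl1 are close copies, so reads may have been split among them. The same holds for the Ifi200 genes.

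The promoters of all 7 risen genes are shown because these genes were called in the same direction, with both listed starts for Ifit2. Each line gives 250 bases up to the RefSeq start of transcription, 5′ to 3′ on the gene's strand, in build GRCm38.p6. Capitals mark each match to GAAA, any 2 bases and GAAA, searched on both strands (TTTC, any 2 bases and TTTC on the strand shown).
Rsad2 (chr12:26456453-26456702, minus strand): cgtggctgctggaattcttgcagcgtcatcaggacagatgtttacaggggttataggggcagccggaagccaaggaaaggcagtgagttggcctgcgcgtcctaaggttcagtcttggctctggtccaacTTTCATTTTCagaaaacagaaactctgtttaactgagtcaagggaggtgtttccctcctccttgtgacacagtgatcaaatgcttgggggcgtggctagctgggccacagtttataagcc
Ifit3 (chr19:34583279-34583528, plus strand): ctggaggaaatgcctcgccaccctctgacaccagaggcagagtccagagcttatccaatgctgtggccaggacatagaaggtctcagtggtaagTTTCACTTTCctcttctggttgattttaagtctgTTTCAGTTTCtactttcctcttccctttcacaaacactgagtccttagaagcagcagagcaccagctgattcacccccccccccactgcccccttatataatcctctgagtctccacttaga
Ifit1 (chr19:34640639-34640888, plus strand): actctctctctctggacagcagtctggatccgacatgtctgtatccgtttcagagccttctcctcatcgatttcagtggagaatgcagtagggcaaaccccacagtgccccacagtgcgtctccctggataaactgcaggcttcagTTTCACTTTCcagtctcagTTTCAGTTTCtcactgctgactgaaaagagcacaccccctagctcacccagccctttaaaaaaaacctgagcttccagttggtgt
Oas3 (chr5:120777660-120777909, minus strand): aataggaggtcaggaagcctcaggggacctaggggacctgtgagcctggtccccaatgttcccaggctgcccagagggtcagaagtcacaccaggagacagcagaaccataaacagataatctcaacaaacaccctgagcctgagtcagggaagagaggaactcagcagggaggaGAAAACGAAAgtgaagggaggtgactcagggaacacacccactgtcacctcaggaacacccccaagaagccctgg
Cmpk2 (chr12:26468965-26469214, plus strand): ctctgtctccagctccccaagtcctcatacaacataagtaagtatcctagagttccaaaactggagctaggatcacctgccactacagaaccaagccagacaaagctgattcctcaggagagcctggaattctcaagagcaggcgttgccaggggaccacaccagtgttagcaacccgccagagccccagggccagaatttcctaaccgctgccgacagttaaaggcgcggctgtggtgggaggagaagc
Ifit2 (chr19:34550444-34550693, plus strand): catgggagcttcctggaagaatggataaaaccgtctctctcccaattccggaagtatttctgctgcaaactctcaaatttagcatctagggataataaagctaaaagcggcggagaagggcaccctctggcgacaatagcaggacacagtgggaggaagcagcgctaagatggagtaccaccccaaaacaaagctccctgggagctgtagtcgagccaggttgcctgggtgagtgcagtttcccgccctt
Ifit2 (chr19:34550838-34551087, plus strand): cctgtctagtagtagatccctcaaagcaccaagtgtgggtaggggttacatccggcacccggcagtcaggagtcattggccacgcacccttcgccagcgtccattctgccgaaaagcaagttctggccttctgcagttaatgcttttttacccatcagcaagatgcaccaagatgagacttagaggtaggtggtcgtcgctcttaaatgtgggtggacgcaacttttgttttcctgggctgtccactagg
Ifi44 (chr3:151749911-151750160, minus strand): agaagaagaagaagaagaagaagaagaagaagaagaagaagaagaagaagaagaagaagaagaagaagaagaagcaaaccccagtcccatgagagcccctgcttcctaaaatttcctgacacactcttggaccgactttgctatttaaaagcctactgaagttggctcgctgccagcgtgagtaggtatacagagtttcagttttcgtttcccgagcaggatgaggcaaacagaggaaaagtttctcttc
Of the 7 risen genes, 4 hold such a match, and 3.46% of the 27025 genes in the RefSeq promoter table do. The 7 belong to a list of known interferon genes, which carry this repeat more often, so the share says nothing about the antibody. The members of the list that did not rise were not counted. Rsad2 has 1 match, whose first base lies 120 bases before the start, Oas3 has 1 at 75, Ifit3 has 2 at 156 and 122 and Ifit1 has 2 at 104 and 85. Overlapping matches were counted separately, and none of these overlap. The letters occur neither in the windows of Cmpk2, Ifit2 and Ifi44 nor, for Ifit2, in the window of its second start.

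Not every interferon gene was higher. Isg15, a ubiquitin-like modifier at the head of the same response, had 14637, 14557 and 11812 under LGG alone and 14647, 13281 and 13359 in the combination, a log2 difference of 0.02 ± 0.08 with a limma adjusted p of 0.924. The groups overlap. With the dependence on length and base composition removed it differed by 0.16 (limma adjusted p = 0.0195). Irf7, the transcription factor that amplifies interferon production, differed by 0.12 (limma adjusted p = 0.342). Transcript of interferon beta itself (Ifnb1) was 63.5, 75.1 and 54.5 under LGG alone and 35.7, 37.1 and 50.5 in the combination, a log2 difference of -0.64 ± 0.21 that missed the threshold (limma adjusted p = 0.105). All 3 combination libraries were the lower ones. Outside the list, the guanylate-binding protein Gbp10 rose by 0.91 and the Ifit family member Ifit1bl1 by 0.72 on the log2 scale. The called genes also hold Slfn4 (0.61), Trim30c (0.61), Ifi203 (0.47), Ifi206 (0.40) and Pml (0.28), which were chosen for mention after their values were seen.

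**Figure D2:**
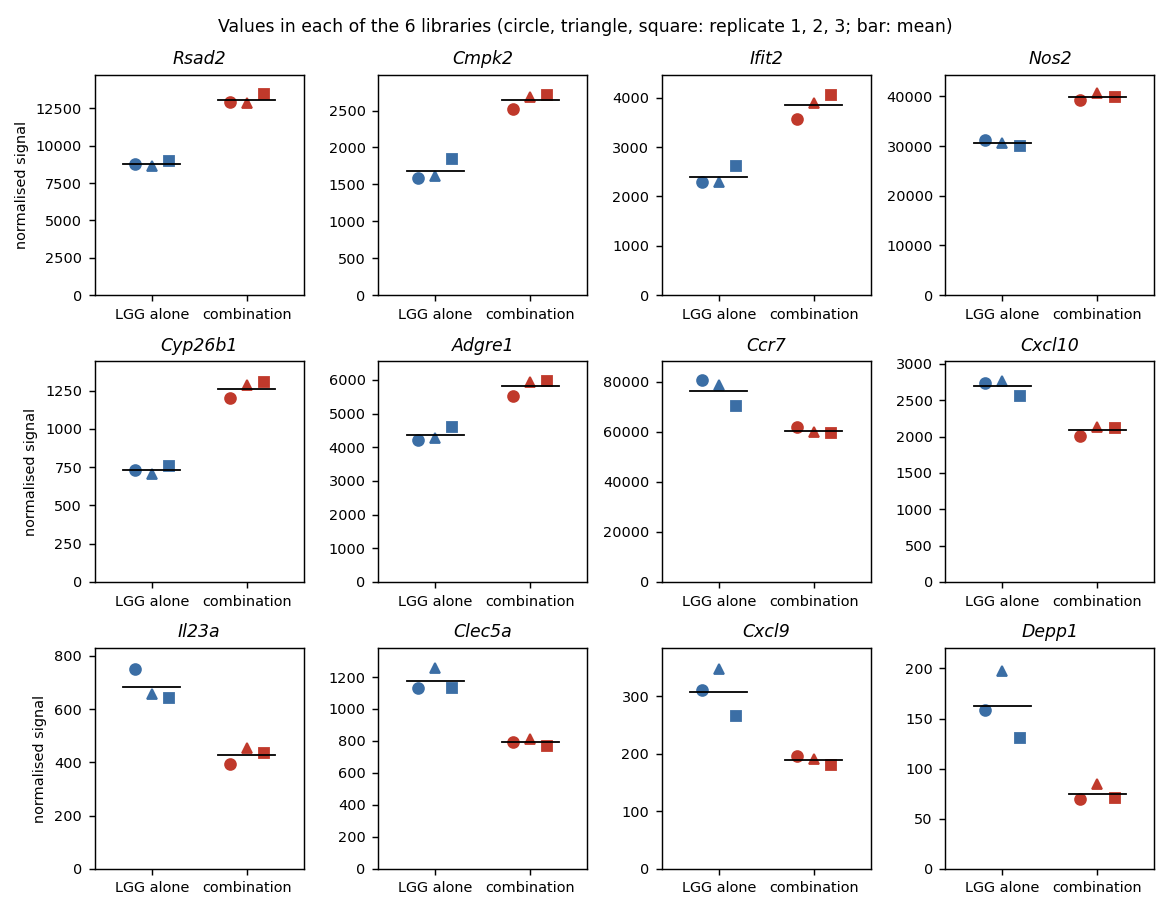
Normalised signal of 12 called genes in each library of LGG alone (blue) and the combination (red), on linear axes from 0, with circles, triangles and squares for replicates 1, 2 and 3 and a bar at the group mean. In each panel the groups do not overlap: Rsad2, Cmpk2, Ifit2, Nos2, Cyp26b1 and Adgre1 are higher in the combination and Ccr7, Cxcl10, Il23a, Clec5a, Cxcl9 and Depp1 are lower.

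The interferon-gamma-induced chemokines Cxcl9 and Cxcl10 fell. Neither was placed in the type I interferon list, so the counts of both interferon lists rest on that placement. Cxcl10 had 2743, 2772 and 2563 under LGG alone and 2003, 2133 and 2119 in the combination, a log2 difference of -0.37 ± 0.06 (limma adjusted p = 0.0187). Cxcl9 had 311, 346 and 265 under LGG alone and 196, 190 and 181 in the combination, a log2 difference of -0.69 ± 0.12 (limma adjusted p = 0.025). Both draw T cells through the receptor Cxcr3, and for both the highest combination library lay below the lowest LGG library. On mm10 they lie close together, Cxcl9 at chr5:92321347-92328079 and Cxcl10 at chr5:92346638-92348889. They were the 2 called genes among 24 tested members of the interferon-gamma list, whose median was -0.11, where 0.368% of all genes fell. Ubd, a ubiquitin-like protein also induced by inflammatory cytokines, was lower by -0.58 on the log2 scale. The transcript of interferon-gamma, Ifng, was 14480, 14441 and 12564 under LGG alone and 13684, 12776 and 12726 in the combination, a log2 difference of -0.08 with a limma adjusted p of 0.473.

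Among 36 tested inflammatory cytokines and NF-kB targets, 1 rose and 1 fell, against 0.792% and 0.368% of all genes, and 26 of the 36 differences were negative. Nos2 (chr11:78920787-78960254 on mm10), which makes nitric oxide from arginine, had 31284, 30559 and 30018 under LGG alone and 39238, 40579 and 39945 in the combination, a log2 difference of 0.38 ± 0.06 (limma adjusted p = 0.0142). Slc7a2, a carrier that brings arginine into the cell, was also called higher at 0.43 and was picked out after its value was seen. Il23a, the p19 subunit of interleukin-23, had 749, 658 and 641 under LGG alone and 391.8, 454 and 436 in the combination, a log2 difference of -0.67 ± 0.09 (limma adjusted p = 0.0108). Its partner subunit Il12b, shared with interleukin-12, differed by -0.00 and the other interleukin-12 subunit Il12a by 0.09, at limma adjusted p of 0.976 and 0.381.

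Tnf had 66264, 65030 and 59567 under LGG alone and 55927, 49484 and 50595 in the combination. Its log2 difference of -0.29 ± 0.07 came with groups that do not overlap but missed the threshold (limma adjusted p = 0.0648). Il1b at 0.01, Il6 at -0.12 and Il10 at -0.16 were not called either. Of 35 chemokines and chemokine receptors, 0 rose and 3 fell (0.792% and 0.368% over all genes), namely Cxcl9, Cxcl10 and Ccr7, and the list's median was -0.15.

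Of 23 tested genes of the mature, migratory state of dendritic cells, 2 fell and 0 rose, where 0.368% of all genes fell and 0.792% rose. Ccr7 had 80528, 78483 and 70387 under LGG alone and 61938, 60052 and 59424 in the combination, a log2 difference of -0.34 ± 0.07 (limma adjusted p = 0.0458). LGG replicate 3 was the lowest of its group, still above the highest combination library. Samsn1, an adaptor protein, fell by 0.26 on the log2 scale. Both calls were lost at nearly the same size with TMM factors (adjusted p = 0.0511 for Ccr7 and 0.0508 for Samsn1) and with edgeR's quasi-likelihood test (0.0602 and 0.0531). The other 21 did not pass. Over the list 21 of the 23 differences were negative, and the median was -0.17 beside -0.02 over all genes. In 14 of the 23 all combination libraries lay below all LGG libraries, where 14.9% of all genes did. The cytoskeletal gene Fscn1 (-0.22, limma adjusted p = 0.103) and the chemokines Ccl17 (-0.22, 0.16) and Ccl22 (-0.15, 0.248), all high in such cells, did not pass.

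Costimulatory molecules and checkpoint ligands held no called gene among 19 tested. Cd274, which encodes the PD-1 ligand PD-L1, had 28751, 28978 and 29316 under LGG alone and 31746, 34493 and 35095 in the combination, a log2 difference of 0.22 ± 0.06 with a limma adjusted p of 0.0786. The combination libraries were all above those of LGG alone. The maturation marker Cd83 differed by -0.30 (limma adjusted p = 0.052), Cd40 by -0.20 (0.0933), Cd86 by -0.14 (0.129), Cd80 by -0.05 (0.601) and the second PD-1 ligand Pdcd1lg2 by -0.07 (0.423). Pdcd1, the target of the antibody, was 142, 136 and 125 under LGG alone and 120, 151 and 146 in the combination, and these ranges overlap. The 24 tested genes of MHC class I presentation and the 15 of class II held 0 called genes, where 1.16% of all genes were called.

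Among 24 tested macrophage and monocyte markers, Adgre1 rose, where 0.792% of all genes did. It had 4220, 4274 and 4603 under LGG alone and 5513, 5933 and 5977 in the combination, a log2 difference of 0.41 ± 0.06 (limma adjusted p = 0.0135). No LGG library reached the combination. The list's median was 0.11, and its summed signal overlapped between the groups, at 149334 to 165768 and 153988 to 168638. Lyz2 and Apoe, abundant transcripts of macrophages, differed by 0.05 and 0.03 (limma adjusted p = 0.669 and 0.842).

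Clec5a and Trem1, myeloid receptors that signal through the adaptor DAP12, both fell. Clec5a had 1131, 1253 and 1131 under LGG alone and 794, 810 and 767 in the combination, a log2 difference of -0.57 ± 0.07 (limma adjusted p = 0.00708). Trem1 fell by 0.69 on the log2 scale, from 299, 360 and 315 to 190, 198 and 215. With Clec2d, the ligand of an inhibitory NK receptor, which fell by 0.43, Clec5a made 2 called genes among 17 C-type lectin and phagocytic receptors. Il1r2, the decoy receptor of interleukin-1, fell by 0.50 and was the called member of 16 neutrophil markers. The basophil protease Prss34 fell by 0.55 and the mast cell protease Cpa3 by 0.35, 2 of 12 mast cell and basophil markers (0.368% of all genes fell), whose summed signal was 8846 to 9921 under LGG alone and 7857 to 8333 in the combination. The part of such cells in these results was not tested.

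Markers of dendritic cell types gave few calls. Tlr3, a sensor of double-stranded RNA that cDC1 carry, rose by 0.77 on the log2 scale, from 71.3, 83.3 and 77.0 to 120, 149 and 128, while the cDC1 marker Naaa fell by 0.30. They were the 2 called of 16 cDC1 markers, and Tlr3 was the single called gene among 23 Toll-like receptors and adaptors. Over all genes 0.792% rose and 0.368% fell, which also stands beside the counts that follow. The summed signal of the cDC1 markers was 80815 to 86023 under LGG alone and 75534 to 78082 in the combination. The members were divided, with 8 positive and 8 negative differences. In 4 all combination libraries lay above all LGG libraries and in 4 below, where 10.8% and 14.9% of all genes did. Of 16 cDC2 markers, Klf4 rose by 0.37 and Zeb2 by 0.34. After each library's dependence on transcript length and base composition was removed, Zeb2 differed by 0.06 (limma adjusted p = 0.515). Markers common to all dendritic cells (13 tested) and those of plasmacytoid cells (12 tested) held 0 calls. The T cell costimulatory receptor Cd28 rose by 0.61, from 244, 313 and 299 to 413, 436 and 453, as the single called gene of 29 T cell markers. Itgb8, an integrin chain that activates TGF-beta, rose by 0.76, the single call among 24 regulatory genes.

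Cyp26b1, which breaks down the retinoic acid that gut dendritic cells make, had 729, 708 and 759 under LGG alone and 1199, 1286 and 1305 in the combination, a log2 difference of 0.79 ± 0.07 (limma adjusted p = 0.00192). No LGG library came near the combination. Clic5, a chloride channel protein, had 375, 399 and 395 against 649, 629 and 687, a log2 difference of 0.75 ± 0.08. Fstl1, a secreted glycoprotein, had 1324, 1477 and 1398 against 2131, 2069 and 2147, a difference of 0.60 ± 0.06. Snhg11, a host gene of small nucleolar RNAs, had 360, 324 and 320 against 569, 589 and 587, a difference of 0.80 ± 0.08. The limma adjusted p of Clic5, Fstl1 and Snhg11 was 0.00228. Cyp26b1 lies at chr6:84571414-84593908 on mm10.

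By size, the leading rises were Sntb1 (a scaffold protein of the dystrophin complex) at 1.24, the nuclear export receptor Xpo4 at 0.97, the transcription factor Onecut2 at 0.97 and the lymphangiogenic factor Ccbe1 at 0.93. They went on with Zfp462 and Angptl2 at 0.85, the thyroid hormone-activating deiodinase Dio2 at 0.80 and the endocytic receptor Lrp1 at 0.78. Sntb1 had 37.9, 34.96 and 54.5 under LGG alone and 93.5, 107 and 98.7 in the combination. Lrp1 had 7184, 7228 and 10087 against 12639, 14460 and 14528, with LGG replicate 3 between its group and the combination. Other called genes, named after their values were seen, were the lysosomal glycoprotein Gpnmb at 0.45, the iron hormone Hamp at 0.57, and the growth factors Hgf at 0.67 and Igf1 at 0.41. With length and base composition accounted for, Igf1 differed by 0.17 and Zfp462 by 0.57 (limma adjusted p = 0.318 and 0.0504).

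The leading falls were Depp1, a target of FOXO factors, at -1.09, followed by Cxcl9, Trem1, Il23a, Ceacam15 (-0.59), Ubd and Clec5a. Depp1 had 158, 197 and 131 under LGG alone and 69.3, 84.3 and 70.2 in the combination. Gdf15, a stress-induced cytokine, fell by 0.53, and the growth arrest genes Gadd45a and Cdkn2a by 0.45 and 0.49. Rhebl1 and Sept4 each fell by 0.49. The unfolded protein, hypoxia and heat shock lists held few calls: Herpud1, which clears misfolded proteins, fell by 0.34 among 20 unfolded protein genes, the hypoxia list held 0 of 16, and Klf4 was the single call among 31 heat shock and immediate early genes. Glycolysis (20 tested), oxidative phosphorylation (30), cholesterol synthesis (19) and the cell cycle (30) held 0. Markers of stromal cells gave 1 call of 6, Pdpn at 0.28, and their summed signal was 3727 to 3843 under LGG alone and 4359 to 4529 in the combination. The histone variant H2afz fell by 0.29 as the single call of 9 histone genes. Beside these counts, 0.792% of all genes rose and 0.368% fell. The lists for B cells, red cells and platelets, nucleic acid sensing, Nrf2 targets, lipid efflux, apoptosis, Fc receptors and mitochondrially encoded genes held 0 calls.

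**Figure D3:**
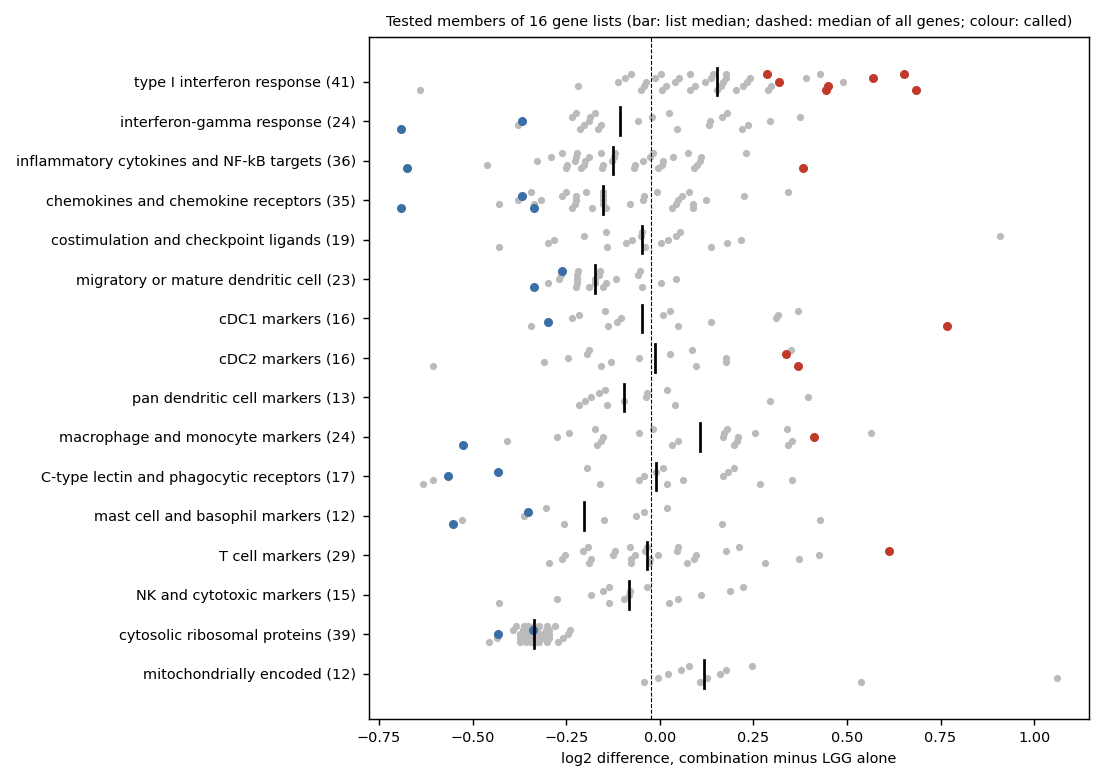
Log2 difference, combination minus LGG alone, of the tested members of 16 gene lists, with the number of members in brackets. A black bar marks each list's median, the dashed line the median of all genes at -0.02, and red and blue points the genes called higher and lower by limma. The type I interferon list lies to the right of the dashed line and the ribosomal and migratory lists to its left.

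Ribosomal protein genes gave 2 calls, both lower, and the same sign throughout. All 39 tested had a negative log2 difference, with a median of -0.34. Of these 2 were called, Rps7 at -0.34 and Rps23 at -0.43, where 0.368% of all genes were called lower. Both calls were lost with TMM factors (adjusted p = 0.0508 and 0.0564) and with edgeR (0.0541 and 0.0602). In 27 of the 39 all combination libraries lay below all LGG libraries, where 14.9% of all genes did. Ribosomal protein genes took 7.40%, 7.48% and 6.72% of the summed signal under LGG alone and 6.50%, 5.68% and 5.65% in the combination, and mitochondrial genes took 1.92%, 1.96% and 2.28% against 2.24%, 2.44% and 2.50%. Without LGG replicate 3, when limma called 14.8% of all genes higher and 16.2% lower, all 39 ribosomal genes were lower, as were 17 of the 23 migratory genes with 0 higher. In that fit 20 interferon genes were higher and 3 lower.

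Transcript length moved with the difference as well. From the shortest to the longest decile of the genes, with median lengths of 973 and 8104 bases, the median log2 difference ran from -0.16 to 0.23. The called genes that rose had a median transcript length of 4244 bases and those that fell a median of 1564, beside 3088 over all tested genes. The correlation across genes of a library's deviation with log2 length was -0.43, -0.43 and 0.20 under LGG alone and -0.03, 0.42 and 0.43 in the combination. Removing from each library its dependence on length and GC content gave 951 called genes (7.61%), 421 higher (3.37%) and 530 lower (4.24%), among them 139 of the 145. In that fit 24 of 41 interferon genes were higher and 0 lower, 11 of 23 migratory genes were lower and 0 higher, and 30 of 39 ribosomal genes were lower. Rsad2, Cmpk2 and Ifit2 differed by 0.53, 0.66 and 0.63 there.

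**Figure D4:**
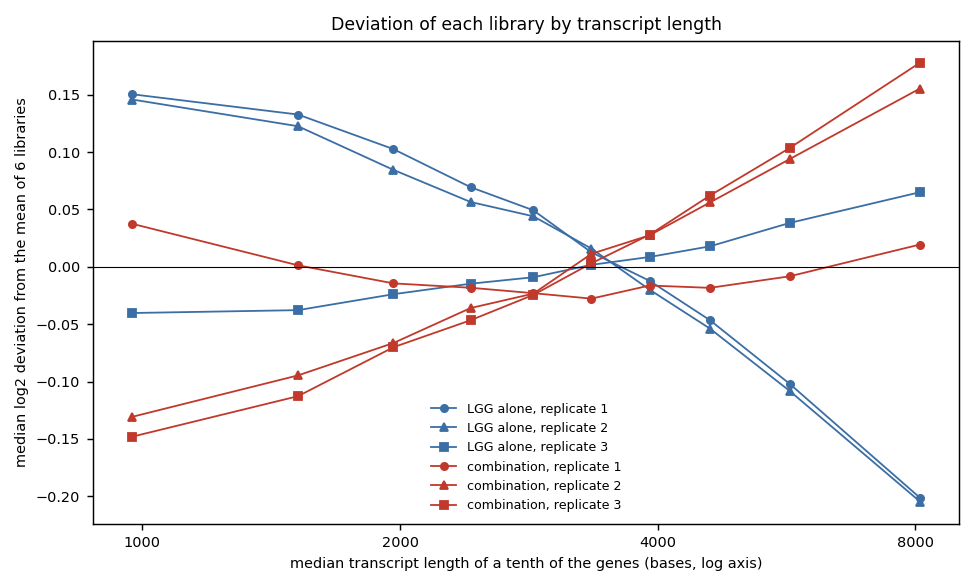
Median log2 deviation of each library from the mean of the 6, by deciles of the genes ordered by transcript length (bases, log axis). LGG replicates 1 and 2 fall with length, the combination's replicates 2 and 3 rise with it, and LGG replicate 3 and the combination's replicate 1 stay closer to 0, LGG replicate 3 between -0.04 and 0.07.

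The same antibody was also given without LGG, and the 2 effects were compared in 12 wild-type libraries that share no sample between the effects. Their controls are unlike, IgG without LGG and no recorded antibody with LGG. Any effect of receiving an antibody therefore cannot be told apart from that of LGG here. The difference between the 2 effects passed for 428 of 12660 genes (3.38%), 219 higher with LGG (1.73%) and 209 lower (1.65%). Removing the dependence on length and GC made this 341 higher and 655 lower. Leaving out single libraries gave from 106 (without LGG replicate 2) to 1580 (without LGG replicate 3). Without LGG, Rsad2 averaged 577 under IgG and 576 under anti-PD-1, a log2 difference of -0.00. Its effect with LGG minus that without was 0.57 ± 0.08 (limma adjusted p = 0.0026). The same difference was 0.77 ± 0.10 for Ifit2 and 0.60 ± 0.14 for Cmpk2. Of the interferon list, 9 genes had a higher effect with LGG and 0 a lower one. For Irf7 that was 0.42, since its effect without LGG was -0.30. Nos2 was lower under anti-PD-1 than IgG without LGG (-0.39 on the log2 scale, means 170 and 225), and the difference between its effects was 0.78 ± 0.08 (limma adjusted p = 0.000458). For Rsad2, Nos2 and Ccr7 the signal without LGG was far below that with it, so their effects start from unlike levels.

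Adgre1 differed between the effects by 0.41, Clic5 by 0.91, Fstl1 by 0.54, Cyp26b1 by 0.60 and Lrp1 by 0.73, all higher with LGG. On the lower side were Depp1 at -1.68, Clec5a at -0.85 and Gadd45a at -0.65. Ccr7 was lower with the antibody in both settings, by 0.34 with LGG and 0.44 without (from a mean of 6153 to 4546), and the difference between the effects was 0.10 with a limma adjusted p of 0.493. The migratory list had 10 lower and 0 higher genes without LGG, where 4.84% and 4.11% of all genes were. Without LGG, 20 of 29 T cell and 10 of 15 NK and cytotoxic markers were lower under anti-PD-1. Over all genes 4.84% were lower there, and 8.95% were called in either direction. The effects differed, higher with LGG, for 10 of the 29 and 6 of the 15, and lower for 0 in either list. Over all genes the effect was higher with LGG for 1.73% and lower for 1.65%. Gzmb, a cytotoxic granule protease, fell from a mean of 9768 to 7420 without LGG, while its 3 libraries had 11159, 11302 and 10647 under LGG alone and 12559, 13008 and 13050 in the combination. The difference between its effects was 0.62 (limma adjusted p = 0.000258).

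In Myd88 knockout mice the same antibody was added to LGG, and the effects of the genotypes were compared in 12 libraries. Myd88 itself averaged 2102 ± 140 and 1820 ± 98.1 (SD, n = 3) in the wild type without and with the antibody and 845 ± 222 and 749 ± 7.91 in the knockout. The gene-level value cannot show which exons are missing. The difference, knockout minus wild type, was called for 3 of 12647 genes (0.0237%): Ifit1 at -0.90, Gimap4 at -0.65 and Gzmb at -0.65. Leaving out the knockout's LGG replicate 2, which stood apart from its group, gave 3477 (27.5%), 1753 higher (13.9%) and 1724 lower (13.6%). Leaving out each other library gave 8 without the knockout's LGG replicate 3 and 0 otherwise by limma, with 698 to 1192 genes at an unadjusted p below 0.05 and no other tool run.

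The interferon genes were compared with and without that library. Without it Rsad2, Cmpk2 and Ifit2 were lower in the knockout's combination than under its LGG alone, by -0.55, -0.62 and -0.80 on the log2 scale, and the differences between the genotypes were -1.12, -1.27 and -1.48. With it the knockout differences were -0.38, -0.42 and -0.56, none called (limma adjusted p = 0.256, 0.303 and 0.242), and the differences between genotypes were not called either (0.089, 0.115 and 0.126). Of the interferon list, 15 genes fell and 0 rose in the knockout without its LGG replicate 2, where 5.2% and 4.18% of all genes did (9.38% in either direction), and in that fit the difference between genotypes was called for 22, all lower in the knockout, where it was called lower for 13.6% and in either direction for 27.5% of all genes. With all libraries 2 fell and 0 rose, where 0.348% and 0.166% of all genes did (0.514% in either direction). Ccr7 was lower in the knockout by 0.32 without that library, and the genotypes differed for it by 0.01 (limma adjusted p = 0.933).

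**Figure D5:**
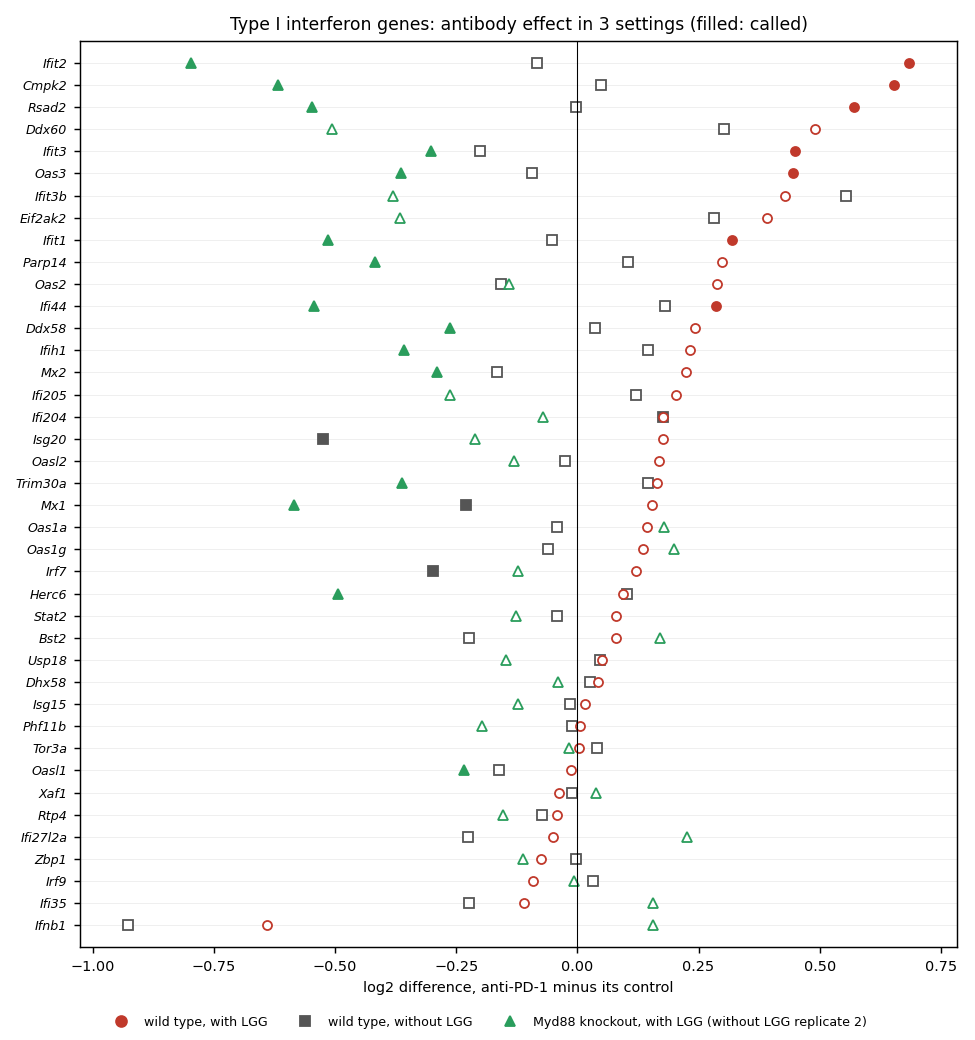
Log2 difference of anti-PD-1 minus its control for 40 of the 41 tested type I interferon genes, in the wild type with LGG (red circles), the wild type without LGG (grey squares) and the Myd88 knockout with LGG, leaving out its LGG replicate 2 (green triangles). Filled symbols passed limma at an adjusted p below 0.05. For Rsad2, Cmpk2 and Ifit2 the red circles lie at 0.57 to 0.68, the squares near 0 and the triangles at -0.55 to -0.80.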

How the data were processed

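RNA of CD11c-positive cells from mesenteric lymph nodes was sequenced in 24 libraries, 3 in each of 8 groups, of which 6 form the main comparison. Per the submitters' processing notes, reads were handled with STAR 2.4.0, HTSeq 0.6.1 and DESeq2 on mm10. The deposited values are a normalised signal per gene, which the authors made as gene counts divided by a size factor per library, as the values themselves show: in each library of the comparison they are whole multiples of 1 step for 100% of values (tolerance 0.001 reads). Genes with a mean of at least 10 were tested on log2(value + 1) with limma 3.58.1 in R 4.3.3 (trend and robust options, Benjamini-Hochberg adjustment, threshold 0.05), so fold changes of low genes are understated. The main comparison was fitted on its 6 libraries and each difference between effects on 12. edgeR 4.0.16 and DESeq2 1.42.0 on recovered whole reads, and other settings, were alternatives. The scripts were tested on simulated data with independent libraries of equal spread. The libraries here were not equally spread and held close pairs, so that test does not cover their setting. Counts carry no molecular identifiers.

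Named genes are the 15 called rises and 15 called falls of greatest size among genes whose groups do not overlap, up to 4 members of each of 38 lists, genes tied to the design, genes called without each library in turn, and up to 5 per direction for the differences. Genes outside this rule were chosen after their values were seen: Slc7a2, Gpnmb, Hamp, Hgf, Igf1, Slfn4, Trim30c, Ifi203, Ifi206, Pml, Ifit3, Ifi44, Fscn1, Ccl17, Ccl22, Lyz2, Apoe, H2-Ab1, Clec9a, Cd3e, Gzma and Ifit3b. The comparison and the lists were chosen with earlier results of these data known. Of 12767 listed genes, 12759 matched the annotation used for lengths. Promoters are from RefSeq. Some genes are not reported here.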

Additional observations from a re-analysis of the deposited data

Results flagged for a closer look

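The antibody's effect with LGG differed from its effect without LGG, by limma's test of that difference at an adjusted p below 0.05, for the genes below. The control was LGG with no recorded antibody in the first and IgG in the second. The values are log2 differences, the effect with LGG minus that without. The higher ones among immune, metabolic and secreted genes were Dio2 0.98, Clic5 0.91, Nos2 0.78, Ifit2 0.77, Lrp1 0.73, Gzmb 0.62, Cmpk2 0.60, Cyp26b1 0.60, Cd28 0.60, Rsad2 0.57, Gimap4 0.55, Fstl1 0.54, Oas3 0.54, Lss 0.51, mt-Nd2 0.47, Iigp1 0.44, Irf7 0.42, mt-Cytb 0.42, Adgre1 0.41 and Zap70 0.40. 5 genes of low level had the highest values: Peg3 2.95, Orm3 2.63, Celf5 2.397, Zfp13 2.00 and Prg2 1.63. The lower ones were Depp1 -1.68, Ch25h -1.17, Clec5a -0.85, Clec12a -0.79, Npl -0.77, Gadd45a -0.65, Clec10a -0.62, Rhebl1 -0.60, Gdf15 -0.54, Spp1 -0.45, Naaa -0.44, Trib3 -0.42, Gclm -0.37, Arg1 -0.36, Srxn1 -0.33, Mgl2 -0.31, H2afz -0.28, Lyn -0.27, Pcna -0.27, Asns -0.24 and Il6 -0.24. The effect under LGG in the Myd88 knockout minus that in the wild type differed for Ifit1 by -0.90, Gimap4 by -0.65 and Gzmb by -0.65. Peg3, an imprinted gene, had a mean normalised signal of 6.49 under IgG, 0.595 under anti-PD-1, 28.2 under LGG alone and 47.7 in the combination (n = 3 each).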

How the results depend on the processing

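For the combination against LGG alone, 145 genes were called. The count was 146 with a pseudocount of 8, 145 with no filter on low values, 110 with TMM factors and 106 with edgeR on whole reads. It was 865 with DESeq2, 5428 with array weights, 8 with all 24 libraries in the fit and 7 to 3867 with 1 library left out. Chosen after seeing the data, averaging the close pairs gave 0 (845 at an unadjusted p below 0.05) and removing the dependence on length and GC gave 951. For the difference between the effects with and without LGG, 428 genes were called, 2178 with array weights, 8 with all 24 libraries, 832 with DESeq2, 996 with length and GC removed and 106 to 1580 with 1 library left out. For the knockout minus the wild type, 3 genes were called, 10 with TMM factors, 5845 with array weights, 6 with all 24 libraries, 136 with length and GC removed and 0 to 3477 with 1 library left out. The replicate numbers were fitted as a block although they did not pair the samples (correlations of same-numbered deviations 0.24, -0.08 and 0.22, with 2 of 3 samples closest to their own number). With the replicate block the counts were 2862, 708 and 0, the last with 1018 at an unadjusted p below 0.05. edgeR and DESeq2 were not run for the knockout comparison, since whole reads were not claimed for 1 of its libraries. The causes of these shifts were not tested. Of 201 named genes, 52 of them called, 0 changed sign in a call. Of those calls, 52 were lost with the close pairs averaged, 46 with all 24 libraries, 2 with length and GC removed, 12 with edgeR and 12 with TMM factors. Ccr7, Samsn1, Rps7, Rps23, Angptl2, Onecut2, Naaa, Cdkn2a, Ceacam15, Rhebl1 and Sept4 were lost with both of the last, at adjusted p from 0.0508 to 0.0605.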
